A study of Mus musculus with 6 samples.

Results

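The 10 Sox genes Sox1, Sox2, Sox3, Sox4, Sox5, Sox6, Sox9, Sox10, Sox11 and Sox12 were followed in laser-captured cervical motoneuron regions. Every probe set annotated to exactly 1 of these symbols was taken, which gave 39 probe sets for 10 genes, of 45037 non-control probe sets and 18193 singly annotated genes on the array. The samples are left and right GFP-positive regions of the cervical spinal cord of 3 untreated mouse embryos at E11.5, littermates that all carry the HB9::GFP transgene. Each embryo gave a left and a right pool, each run on 1 array. In this line GFP is driven by the promoter of Mnx1 (HB9), a homeodomain factor of motoneurons, and the left and right regions of an embryo were cut from the same sections. The comparison asks whether left and right motoneurons differ in RNA, here for the factors that lead a progenitor to become a neuron.

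Sox proteins bind DNA through an HMG box and are grouped by its sequence. In the embryonic cord the SoxB1 factors Sox1, Sox2 and Sox3 are expressed in dividing progenitors of the ventricular zone and hold back neuronal differentiation, and Sox9 of group E is found in the same zone, where it is needed for the later switch to glia. The SoxC factors Sox4, Sox11 and Sox12 come on as cells leave the cycle and are known as activators of neuronal genes. Sox10 belongs to neural crest, Schwann cell precursors and oligodendrocytes, and the SoxD factors Sox5 and Sox6 act in progenitors, in some neurons and, with Sox9, in cartilage.

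Promoters are shown for a progenitor factor whose signal varied widely over the pools, Sox2, and for the SoxC factors Sox11 and Sox4, whose brightest probe sets varied little. Each is the 250 bases before the annotated start in RefSeq (GRCm38.p6), on the strand of the gene, and gene positions below are from the same build. The windows are chr3:34649745-34649994 (+) for Sox2, chr12:27342719-27342968 (−) for Sox11 and chr13:28953700-28953949 (−) for Sox4. Capitals mark matches on either strand to CCAAT (read as ATTGG on the other strand), the box bound by NF-Y, to ACAAT, a core bound by Sox proteins, and to CANNTG, the E-box bound by proneural bHLH factors. These motifs were chosen after the sequences had been seen.
Sox2: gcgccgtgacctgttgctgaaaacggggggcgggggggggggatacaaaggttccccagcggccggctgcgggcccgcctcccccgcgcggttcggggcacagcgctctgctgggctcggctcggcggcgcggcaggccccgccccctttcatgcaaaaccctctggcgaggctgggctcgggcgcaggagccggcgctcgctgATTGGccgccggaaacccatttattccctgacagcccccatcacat
Sox11: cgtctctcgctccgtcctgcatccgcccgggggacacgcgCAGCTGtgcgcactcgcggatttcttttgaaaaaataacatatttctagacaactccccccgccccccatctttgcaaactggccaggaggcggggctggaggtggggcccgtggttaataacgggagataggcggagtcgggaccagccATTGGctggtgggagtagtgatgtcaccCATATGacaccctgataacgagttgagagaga
Sox4: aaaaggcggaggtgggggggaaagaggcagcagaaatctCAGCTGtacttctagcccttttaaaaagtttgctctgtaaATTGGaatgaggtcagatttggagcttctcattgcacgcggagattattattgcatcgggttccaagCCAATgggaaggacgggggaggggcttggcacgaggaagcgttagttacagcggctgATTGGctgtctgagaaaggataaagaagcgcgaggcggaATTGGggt
The Sox2 window holds 1 CCAAT match, which starts at position −46 from the start of the gene, and the Sox11 window 1, at position −60. The Sox4 window holds 4. RefSeq promoters were matched for 7 members, with 6 starts for Sox6. All 5 windows of SoxB1 and SoxC members that matched (Sox1, Sox2, Sox4, Sox11 and Sox12) hold CCAAT, as do 2 of the 6 Sox6 windows, while the Sox5 window holds none. CCAAT is in 33.8% of all 32851 windows of the table, and since the motif was picked after these sequences had been seen, the counts are no comparison with that share. ACAAT was matched in 0 of the 5 SoxB1 and SoxC windows, in the Sox5 window and in 3 of the 6 of Sox6 (27.7% of all windows). CANNTG was matched in 3 of the 5, in all 6 of Sox6 and not in that of Sox5 (66.2%). No match overlaps another in the 3 printed windows. A match is a description of the letters and not a bound site.

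The signal of a probe set has no scale shared with other probe sets, so each was read against a signal of 200, the lowest maximum the methods kept in their comparison of sides, and among the 6 pools. Tests were run on probe sets at or above 200 in at least 1 pool. Of the 39 Sox probe sets 24 were tested, for 9 genes, and 12 were at or above 200 in all 6 pools, all of them of Sox4, Sox11 and Sox12. The other 12 tested probe sets reached the limit in some pools only, and 15 never reached it. Among the arrays, the mean correlation with the 5 others was lowest for the right pool of embryo 1 (0.87, against 0.883 to 0.907). In that pool mesenchyme genes were bright: the summed signal of a list of 15 sclerotome, cartilage and mesenchyme genes was 15829, against 2142 in its left partner and 1191 to 2595 in the pools of embryos 2 and 3. Motoneuron genes were read in every pool, with Mnx1 at 3520 to 5219 and Isl1 at 3771 to 5991. The captures are tissue, so fewer cells of a type and less RNA per cell cannot be told apart.

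**Figure D1:**
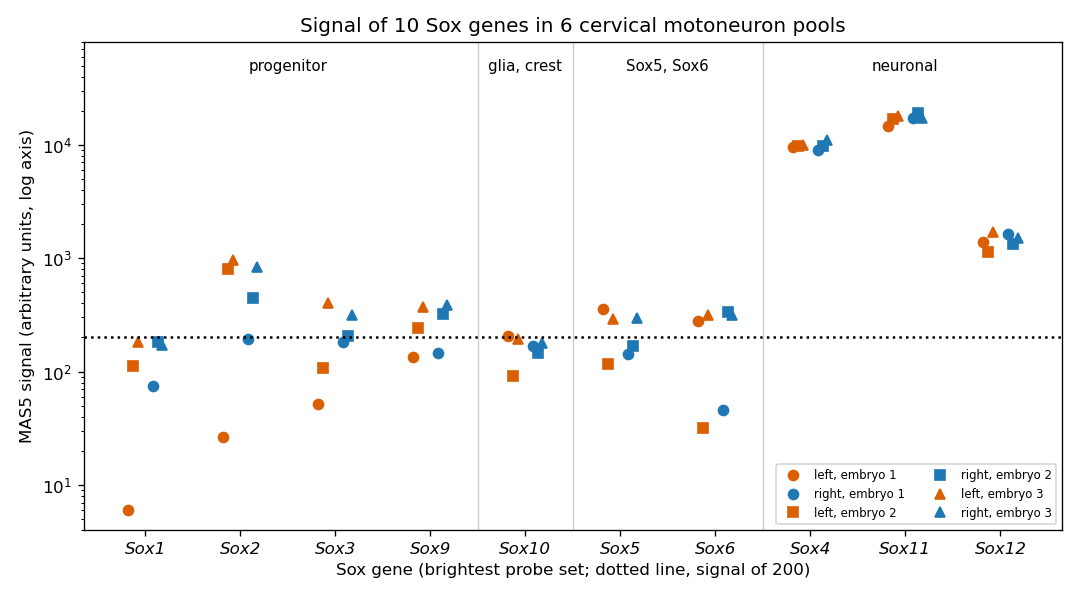
MAS5 signal (log axis) of the brightest probe set of each of the 10 Sox genes, with left pools in orange, right pools in blue and embryos 1, 2 and 3 as circles, squares and triangles, with a dotted line at 200. Sox4, Sox11 and Sox12 sit in narrow bands above the line, whereas Sox1, Sox2 and Sox3 are spread, with the left pool of embryo 1 lowest in each.

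The brightest probe sets of the neuronal Sox genes were far above 200 and close to even over the pools, whereas their dimmer probe sets varied more. Sox11 (chr12:27334268-27342718), a SoxC activator of neuronal genes, had left signals of 14633, 16847 and 17922 in embryos 1, 2 and 3 and right signals of 17138, 19017 and 17392 in its brightest probe set. The 6 pools thus lie within a narrow band, with the left pool of embryo 1 lowest, and the sides overlap. Its 5 other probe sets had medians from 1170 to 16912 and no signal of theirs was under 1106. Sox4 (chr13:28948919-28953699), its closest partner in newborn neurons, gave 9496, 9768 and 10015 in the left pools and 9021, 9842 and 10964 in the right pools. Here too the sides overlap and the right pool of embryo 3 was highest. Sox4 has 8 probe sets, of which 4 others were tested, with medians from 305 to 886, and 3 stayed under 200. The dimmer Sox4 probe sets were less even, one running from 474 to 1320 over the pools and another from 179 to 452. Sox12 (chr2:152393611-152398046), the remaining SoxC factor, gave 1390, 1145 and 1719 for left and 1636, 1343 and 1497 for right. Embryo 2 was lowest on both sides, and the other 2 probe sets ran from 514 to 807 and from 173 to 485, the highest of the latter in the right pool of embryo 1.

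Right over left, the brightest probe sets of the neuronal members were close to equal. The mean log2(R/L) was 0.12 ± 0.14 for Sox11, 0.02 ± 0.10 for Sox4 and 0.09 ± 0.25 for Sox12 in their brightest probe sets (SD, n = 3 embryos). The 95% intervals from limma, not adjusted for the number of probe sets, were −0.12 to 0.36, −0.23 to 0.28 and −0.31 to 0.49. Over all 14 tested SoxC probe sets the mean log2(R/L) ranged from −0.35 to 0.34. Both extremes are Sox4 probe sets, one with ratios of −0.89, −0.14 and −0.01 in embryos 1, 2 and 3 and the other with 1.18, 0.53 and −0.68. They point opposite ways and are largest in embryo 1. Probe sets of 1 gene share their RNA and are not replicates.

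Progenitor Sox genes varied widely between pools, from under 200 in both pools of embryo 1 to well above it for Sox2 in embryos 2 and 3. Sox2 (chr3:34649995-34652461), the SoxB1 factor that keeps neural progenitors undifferentiated, has 1 probe set. Its signals were 26.3 (left) and 193 (right) for embryo 1, 808 and 443 for embryo 2, and 964 and 840 for embryo 3. Both pools of embryo 1 lie below all 4 others, and the sides overlap. The gene lies inside the annotated span of the long non-coding RNA Sox2ot. Sox3 (chrX:60891366-60893430), which overlaps Sox2 in expression and action, had 51.5 and 184 (left, then right) for embryo 1, 108 and 205 for embryo 2, and 405 and 315 for embryo 3. The left pool of embryo 1 was again lowest and embryo 3 highest on both sides. Sox1 (chr8:12395519-12399555), the remaining SoxB1 member, never reached 200 and was not tested. It gave 6.05 and 74.2 for embryo 1, 111 and 181 for embryo 2, and 182 and 170 for embryo 3, so that embryo 1 was again lowest on both sides. Second probe sets of Sox1 and Sox3 stayed at or below 11.4 and 6.93.

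Sox9 (chr11:112782210-112787757), a progenitor factor needed for gliogenesis and also for cartilage, gave 135 and 145 for embryo 1, 243 and 320 for embryo 2, and 372 and 385 for embryo 3 in its brightest probe set. The 2 pools of an embryo lie close together and the 3 embryos do not overlap. A second tested probe set read 16.6 on the left of embryo 1 and 106 to 206 elsewhere, and the last stayed at or below 44.2.

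**Figure D2:**
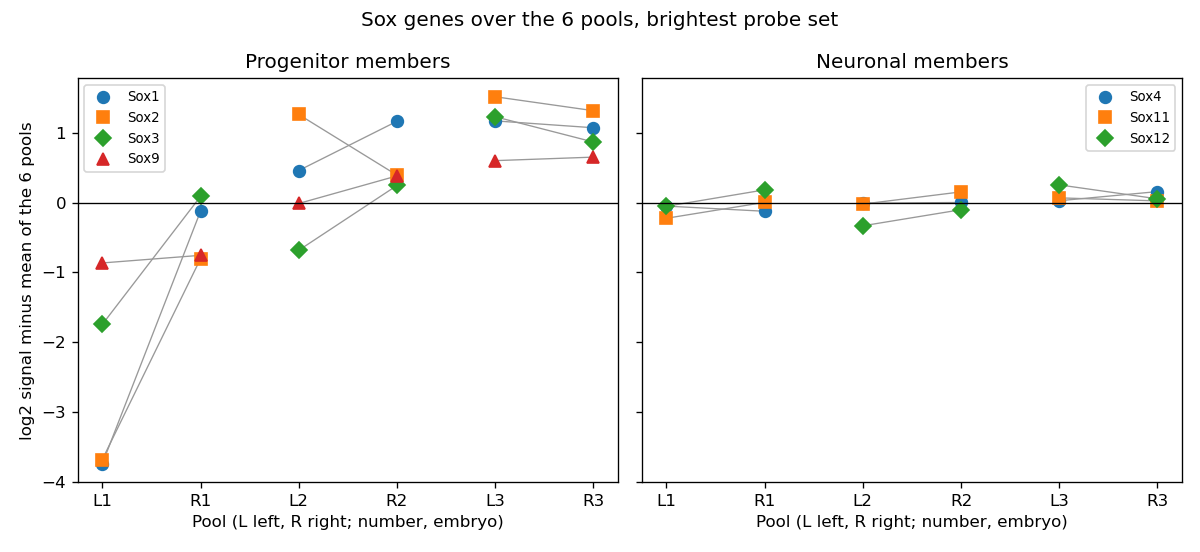
Log2 signal minus the mean of the 6 pools for the brightest probe set of the progenitor (Sox1, Sox2, Sox3 and Sox9) and neuronal (Sox4, Sox11 and Sox12) members, with the left and right pool of an embryo joined by a line. The progenitor members are lowest in the left pool of embryo 1 and above their mean in both pools of embryo 3, whereas the neuronal members stay near 0 in all 6 pools.

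In their brightest probe sets the progenitor members were all higher on the right in embryo 1 and on average. In embryos 2 and 3 their signs were mixed. The log2(R/L) of Sox2 was 2.88, −0.87 and −0.20 in embryos 1, 2 and 3 (mean 0.60 ± 2.00, SD, n = 3), higher on the right in 1 of 3 embryos. That of Sox3 was 1.83, 0.93 and −0.36 (mean 0.80 ± 1.10), and that of Sox1 3.62, 0.70 and −0.10. Sox9 was higher on the right in 3 of 3 embryos, by 0.11, 0.40 and 0.05 (mean 0.19 ± 0.18), but its second tested probe set gave 3.29, −0.45 and −0.41. The large ratios of embryo 1 divide by left signals of 6.05 to 51.5 and have no exact size: with 50 added to each signal the mean of Sox2 was 0.23 and that of Sox3 0.53. Without embryo 1 the mean of Sox2 was −0.53. The limma interval was −0.79 to 1.99 for Sox2 and −0.31 to 1.91 for Sox3, so that both hold a log2 ratio of 1, a 2-fold higher right level.

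As a group, the brightest probe sets of the 4 progenitor members had a median log2(R/L) of 2.35, 0.55 and −0.15 in embryos 1, 2 and 3. The median of the 3 neuronal members was 0.23, 0.17 and −0.04, and that of all tested probe sets 0.03, 0.03 and −0.001. The mesenchyme list, which the right pool of embryo 1 holds in excess, had medians of 3.01, 0.75 and −0.20 over its 8 tested genes in the same 3 embryos, and the cell cycle list 0.53, −0.21 and −0.07 over 14. The part of these lists in the Sox ratios was not tested. Col2a1, a cartilage collagen that Sox9 activates, read 217 in the right pool of embryo 1 and 9.61 to 26.7 elsewhere. It was tested only because of that pool. The filter thus favours mesenchyme genes that are bright there, and the medians of that list are a description.

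Sox10 was read near the limit, and other crest and glial genes were read on either side of it. Sox10 (chr15:79154913-79164490), the factor of neural crest and of the glia that derive from it, gave 208, 92.1 and 195 for left and 168, 147 and 177 for right in its brightest probe set, so that 1 of 6 pools was above 200. Its sides overlap, and log2(R/L) was −0.31, 0.67 and −0.13 (mean 0.08 ± 0.52, SD, n = 3; limma interval −0.89 to 1.05). The 2 other probe sets of Sox10 stayed at or below 95.3. Among crest and Schwann precursor genes of a list of 14, 10 were on the array and 6 reached the limit. Tfap2a, a crest factor that is also found in dorsal interneurons, read 113 to 585, Ednrb, an endothelin receptor of crest and radial glia, 154 to 434, and Foxd3, a factor of early crest and of some interneurons, 90.8 to 224. Mitf, a factor of melanoblasts, read 8.46 to 216. Erbb3, the neuregulin receptor of Schwann cell precursors, read 35.4 to 174 and Cdh19, a cadherin of the same cells, 2.92 to 55.5. Ngfr, a neurotrophin receptor that motoneurons also carry, and Pou4f1, a factor of sensory neurons, were the brightest of the list, at 363 to 615 and 188 to 753. In the oligodendrocyte list 4 of 6 genes reached the limit. Mbp, a myelin protein gene with transcripts in other cells, read 221 to 772, Cspg4, a proteoglycan of precursors and pericytes, 137 to 344, and Olig1, a factor of the lineage, stayed at or below 79.2. The part of crest or glial cells in the Sox10 signal was not tested.

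SoxD genes split by pool and by probe set. Sox5 (chr6:143828425-144782287), a factor without an activation domain of its own, has 7 probe sets, of which 4 were tested. The brightest gave 357, 116 and 292 for left and 144, 167 and 295 for right, lower in embryo 2 than in embryo 3. Embryo 2 had the lowest mean log2 signal in all 4 tested probe sets. The log2(R/L) of the 4 averaged −0.73, −0.32, −0.25 and 0.04, with SDs of 0.19 to 1.31. Sox6 (chr7:115470872-116040776), its partner in many tissues, gave 280, 31.9 and 315 for left and 46.1, 334 and 317 for right in the 1 probe set tested. The right pool of embryo 1 and the left pool of embryo 2 were thus low and the 4 other pools nearly equal, which gave ratios of −2.60, 3.39 and 0.01. The 3 other probe sets of Sox6 stayed under 200.

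**Figure D3:**
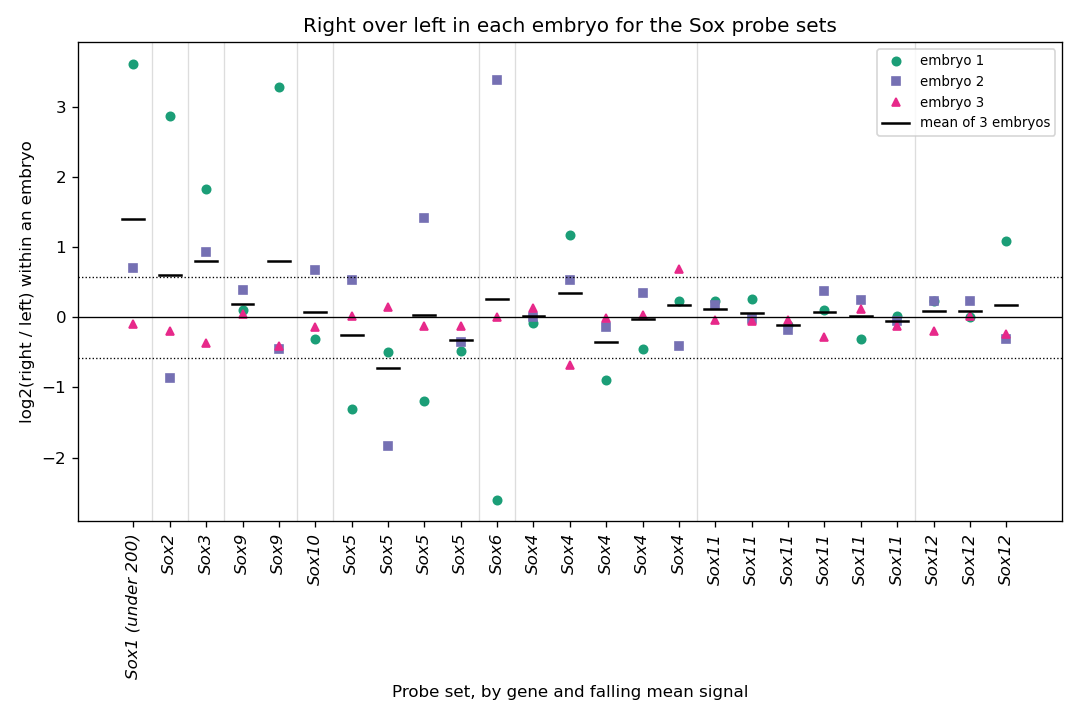
Log2(R/L) in embryos 1, 2 and 3 and its mean (black line) for the 24 tested Sox probe sets and Sox1, ordered by gene and falling signal, with dotted lines at the 1.5-fold limit of 0.58. Sox11 and the brightest Sox4 and Sox12 probe sets lie within the dotted lines in all 3 embryos, and points beyond them come from embryos 1 and 2, except in 2 of the Sox4 probe sets.

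No Sox probe set met the rule of the methods for a difference between the sides, under which 3 of 3 embryos point the same way and both the mean and 2 or more of the embryos pass 1.5-fold. The present calls that the methods also asked for were not available, so the shares below are not those of the paper. Of 24 tested, 0 met the fold rule on the right, where 2.4% of all 21853 tested probe sets did, and 0 on the left, where 1.55% did (3.94% on either side). With limma (side and embryo as terms, Benjamini-Hochberg over all tested probe sets) 0 of the 24 passed an adjusted p of 0.05, and adjusted p-values ran from 0.974 to 0.997. At an unadjusted p under 0.05 there were also 0, against 3.4% of all tested probe sets, and 0% passed after adjustment. The ratio had 1 sign in all 3 embryos in 5 of the 24, against 23.5% of all probe sets, and in 0 of the 24 were the sides without overlap, against 5.43% (2.98% with the right higher and 2.45% with the left higher). The median of the mean log2(R/L) was 0.07 over the 24 and 0.02 over all tested. With 3 embryos an exact two-sided sign-flip test cannot go below p = 0.25, and in simulated data limma recovered 0% of probe sets moved by a log2 of 1 and 36% of those moved by 2. The moved probe sets were drawn from all tested, dim ones included. These shares are thus not those of the brightest Sox11, Sox4 and Sox12 probe sets, whose limma standard errors were 0.11, 0.11 and 0.18. Without embryo 3, Sox3 met the rule on the right, and it was the only Sox probe set to do so when 1 embryo was left out. In that setting 1070 of all 21853 tested probe sets met it on the right, so 1 of 24 Sox probe sets is near the share of all.

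Embryo 1 was low in the progenitor members and, by less, in several probe sets of Sox11. Sox2 averaged a log2 signal of 6.16 in embryo 1, 9.22 in embryo 2 and 9.81 in embryo 3, and the difference of embryo 1 from the mean of the others was −3.36. It was −2.90 for Sox1, −1.24 for Sox3 and −1.22 for Sox9. These too rest on left signals as low as 6.05 and have no exact size: with 50 added to each signal they were −2.53 for Sox2, −1.32 for Sox1, −0.89 for Sox3 and −0.98 for Sox9. The same difference was −0.17 for Sox11, −0.13 for Sox4, 0.10 for Sox12 and 0.35 for Sox10. In the same limma fit the embryo term had an unadjusted p under 0.05 in 9 of the 24 tested Sox probe sets (37.5%), against 15.3% of all tested. Embryo 1 was lowest in 7 of the 9, for Sox2, Sox9, Sox3 and 4 probe sets of Sox11 (differences of −0.33 to −0.69), and embryo 2 in the 2 of Sox5. Probe sets of 1 gene share their RNA, so the 9 are not 9 genes and the 37.5% is not a share of genes. Those of Sox2, Sox9, Sox3 and Sox5 were under 200 in both pools of their lowest embryo and reached the limit only in other embryos. The filter on the highest signal thus favours dim probe sets that differ between embryos, and the 37.5% is a description. After adjustment over all probe sets 0 of the 24 passed 0.05 (lowest adjusted p = 0.115, Sox2), where 0.27% of all did. Left out one at a time, embryo 2 brought Sox2 to an adjusted p of 0.00107 and embryo 1 brought a Sox5 probe set to 0.0273. Scaling the arrays to 1 median brought Sox2 to 0.0317. In that order, these fits called 846, 788 and 249 of all 21853 tested probe sets for embryo, against 59 in the main fit. The 2 pools of an embryo share sections, so these values describe the 3 animals and their captures.

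Other genes of the progenitor zone were read alongside, from lists of markers. Of 16 genes of ventral progenitors and radial glia 11 were tested, and 10 of the 11 were lower in embryo 1 than in the mean of embryos 2 and 3, with a median difference of −0.68, where 50.1% of all tested probe sets were lower and their median was −0.001. Fabp7, a fatty acid binding protein of radial glia, gave 1696 and 2336 for embryo 1, 3891 and 3259 for embryo 2, and 5722 and 4722 for embryo 3. Nes, the intermediate filament of neural progenitors, read 2056 and 2570, then 3857 and 3902, then 3644 and 3380. In both genes the pools of embryo 1 lie below the 4 others, with embryo adjusted p-values of 0.0719 and 0.157 by limma. Vim, another filament of progenitors and of mesenchyme, differed by −0.16. Pax6, Hes5, Nkx2-2 and Rfx4 of this list were under 200 in both pools of embryo 1 and were tested only through other embryos. Sox21, a SoxB2 relative expressed in progenitors, read 543 and 551 in embryo 1 and 875 to 1436 in the others (adjusted p = 0.115). Among 9 Sox relatives outside the 10 members 4 were tested, 0 of which met the fold rule, and Sox8, Sox13, Sox15, Sox18 and Sox30 stayed under 200.

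Proneural and cycle exit genes were divided, with 7 of 11 tested lower in embryo 1 (median −0.58). Gadd45g and Neurod4 among them were under 200 in both pools of embryo 1 and were tested only through embryo 2. Neurog2, the bHLH factor that drives motoneuron differentiation, differed by −1.32, Dll1, its Notch ligand target, by −1.17 and Insm1, a factor of delaminating progenitors, by −1.61. Cdkn1c, a cyclin-dependent kinase inhibitor of cells leaving the cycle, was the brightest, at 6814 to 9652, and differed by 0.31, and Hes6, an inhibitor of Notch effectors, was next, with 0.02. Averaged over both pools of embryo 1, genes of dividing cells did not follow, with 5 of 14 lower and a median of 0.10. The 2 pools were split, however, with summed signals of 10598 (left) and 15660 (right) for this list. The pools of embryos 2 and 3 gave 10449 to 12808. Mesenchyme genes were bright in that right pool, and its part in the median was not tested. Among motoneuron genes 1 of 11 was lower in embryo 1 (median 0.31), and of 14 genes of postmitotic neurons 2 were (median 0.13). Prph, the peripherin filament of motor and sensory neurons, gave 23019 and 23486 for embryo 1, 15618 and 14011 for embryo 2, and 10514 and 10753 for embryo 3 (embryo adjusted p = 0.030 by limma, embryo 1 higher by 0.89). Olig2, the defining factor of motoneuron progenitors, stayed at or below 76.4 in all pools. Whether the share of progenitor tissue in the captures moved these signals was not tested.

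**Figure D4:**
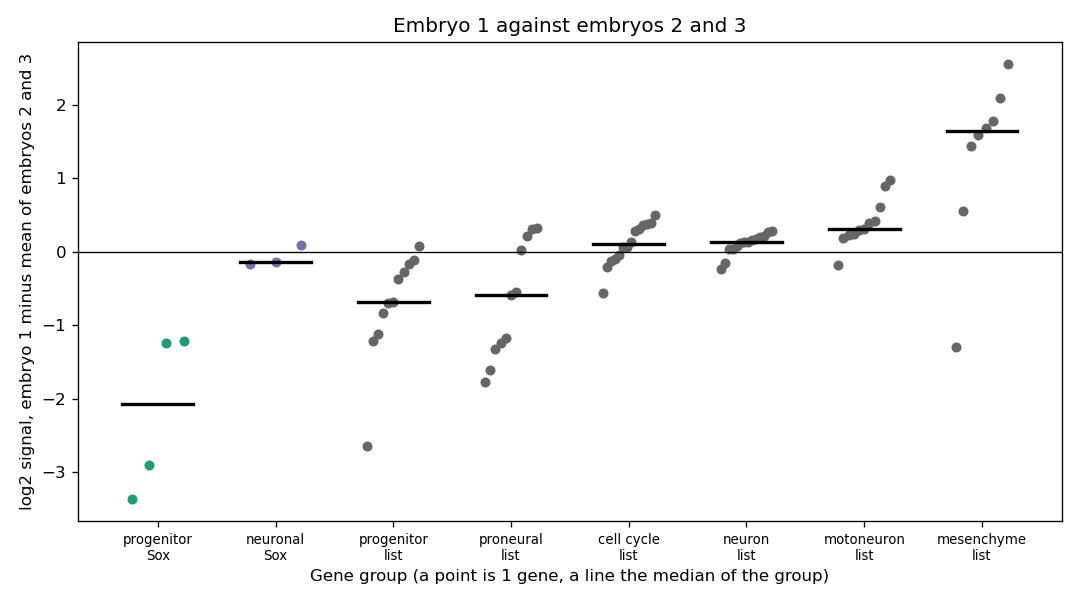
Log2 signal of embryo 1 (mean of its 2 pools) minus the mean of embryos 2 and 3, for the progenitor and neuronal Sox members (brightest probe sets, Sox1 included) and for the tested genes of 6 marker lists, with the median of each group as a line. The neuronal Sox median is −0.13, that of the progenitor list −0.68 and that of the motoneuron list 0.31. The progenitor Sox median, −2.07, includes Sox1, which was not tested, and was −1.15 with 50 added to each signal and −1.24 over its 3 tested genes.

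Side differences in the lists were few. Of the progenitor list 2 of 11 met the fold rule, both on the right, and 0 on the left, against the 2.4% and 1.55% of all probe sets given above. They are Pax6, a homeodomain factor of progenitors, at 77.4 and 174, 217 and 418, and 106 and 184 (left and right of embryos 1, 2 and 3), and Notch1, the receptor that holds progenitors in their state, at 144 and 296, 229 and 360, and 199 and 237. Their log2(R/L) averaged 0.97 ± 0.19 and 0.65 ± 0.39 (SD, n = 3), higher on the right in 3 of 3 embryos, with an adjusted p of 0.974 for each by limma. The sides overlap in Pax6, whereas the 3 right pools of Notch1 lie above its 3 left pools, as in 2.98% of all tested probe sets. The gap in Notch1 is narrow, between 237 on the right of embryo 3 and 229 on the left of embryo 2. In the mesenchyme list 1 of 8 tested genes met the rule (Col1a2, on the right), and in the other 8 lists besides the Sox relatives (proneural, cell cycle, postmitotic neurons, motoneurons, crest, oligodendrocyte, endothelium and erythroid) 0 did. The brightest genes of the remaining lists were Pcna and Mki67 (cell cycle), Nefl and Stmn2 (postmitotic neurons), Mbp and Cspg4 (oligodendrocyte), Kdr and Cldn5 (endothelium) and Hbb-y and Hbb-bh1 (erythroid). With limma 0 genes passed an adjusted p of 0.05 in any of the 11 lists. At an unadjusted p under 0.05 there was 1 of 11 in the progenitor list, 3 of 8 in the mesenchyme list and 1 of 4 in the erythroid list. Of all tested probe sets 3.4% had such a p. The median log2(R/L) of the mesenchyme list was 3.01, 0.75 and −0.20 in embryos 1, 2 and 3, so it was largest in embryo 1.

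Likeness over the 6 pools was measured as the correlation of log2 signals with the brightest probe set of a member, among tested probe sets of other single genes. For Sox2 the 5 most alike were Ypel2, Cdv3, Pcgf3, Slc38a1, an amino acid transporter, and a probe set of Sox11 (r = 0.992 to 0.998). Among members in their brightest probe sets, Sox2 correlated at 0.95 with Sox1, 0.85 with Sox9 and 0.80 with Sox3, at 0.79 with Sox11 and 0.56 with Sox4, and at −0.44 with Sox10. For Sox9 they were Cdyl, Rapgef5, Slc16a4, Sepsecs and Jkamp, for Sox11 Meaf6, Lrrtm3, Cntn2, an axonal adhesion molecule, Smg5 and Osgin2, and for Sox10 Kcnip1, a potassium channel subunit, Uap1l1, Arhgap19, Tfip11 and Wrn. These rest on 6 points from 3 embryos, and 448 of 18948 probe sets had r above 0.9 with Sox2 and 280 of 18948 with Sox10.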

How the data were processed

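Left and right GFP-positive cervical motoneuron regions of 3 embryos were hybridised, 1 pool per Affymetrix mouse array, from RNA amplified before labelling. Per the methods and labels, the authors computed the deposited signal intensities with MAS5 in Affymetrix Expression Console (version not given in the sources used here). They are linear, with a trimmed mean of 500 on each of 6 arrays. The table analysed here holds no detection calls. The methods also kept only transcripts called present in at least 1 sample of each embryo, and that filter was not applied here. Probe sets whose highest signal reached 200 were tested (21853 of 45037, after 64 controls were left out), on log2 signals with no added constant, with limma 3.58.1 in R 4.3.3, side and embryo as terms and a trend in the variance. The pools of an embryo come from 1 animal, and after subtraction of side means they correlated at 0.241, 0.215 and 0.495 in embryos 1, 2 and 3. The fold criterion of the methods was run beside it. A list gene is represented by its brightest probe set, and all its probe sets are given for a member. From each list the genes named are those that met the fold rule, the brightest, and those a result turns on, the last chosen after their values were seen (such as Olig2, Erbb3, Cdh19, Col2a1, Prph, Nes, Neurog2, Dll1 and Insm1). The members and lists were chosen with earlier results of these data known. In simulated data for 21853 probe sets with 200 moved between sides, limma recovered 0, 72 and 106 at a log2 of 1, 2 and 3, and for an embryo difference 0, 0 and 92. The noise of each probe set was drawn from its own residual spread, itself estimated from 6 arrays. The fit of the real data called 59 probe sets for embryo, so the simulation is no exact measure of what the fit can find. Alternatives were quantile and median scaling, 50 added to each signal, other filters, each embryo left out, a fit of side alone, variances with no trend, and stricter fold rules. The number of arrays limits the precision.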

Additional observations from a re-analysis of the deposited data

How the results depend on the processing

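With no replicate block, 0 probe sets passed an adjusted p of 0.05 for side, as with the block. Sox probe sets with an adjusted p under 0.05 for side numbered 0 under every setting run (lowest 0.917), and over all probe sets 0, except for 1 without embryo 1, so that leaving out embryos gave 0 to 1. Sox calls by the fold rule stayed at 0 except for 1 on the right and 1 on the left, both dim probe sets of Sox5, with no filter, and 0 to 1 on the right when an embryo was left out (Sox3, without embryo 3). Over all probe sets the fold rule gave 524 on the right and 338 on the left. These became 333 and 197 with 50 added, 2805 and 1696 with no filter, 234 and 176 with a mean signal of at least 200, 84 and 49 when all 3 embryos had to pass 1.5-fold, 191 and 95 at 2-fold, and 200 to 1070 and 176 to 642 with an embryo left out (highest without embryo 3). The embryo term called 59 probe sets, against 249 with median scaling, 165 with 50 added, 14 with no filter, 38 with a mean of at least 200, 0 without a trend and 5 to 846 with an embryo left out (lowest without embryo 3, highest without embryo 2). Among Sox probe sets it called 1 (Sox2) with median scaling and 0 to 1 with an embryo left out. The causes were not tested. Of the recomputed mean log2(R/L) values of Sox probe sets, 195 stayed within 1 SD of the reported value and 3 moved further. Counted over both, 24 changed sign, and 0 of these belonged to a called difference, since no Sox probe set was called. The 3 were Sox9 over both its tested probe sets (0.50) and 2 Sox11 probe sets with median scaling (−0.20 and −0.14). The count within 1 SD is no measure of stability. The filters leave a ratio as it was, and leaving out 1 of 3 embryos cannot move a mean by 1 SD. Sox2 without embryo 1 (−0.53, against 0.60) is counted among the 195. Median scaling moved log2(R/L) of all genes by −0.17, −0.17 and 0.08 in embryos 1, 2 and 3. The embryo differences with 50 added, an alternative chosen after seeing the data, kept their sign in all 10 Sox genes. Signals under 200 limit what can be said of Sox1, Sox10 and the left pool of embryo 1.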
